A study of Mus musculus with 11 samples.

Results

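Axon guidance ligands and receptors were followed in pieces of the mandibular arch, the paired embryonic swelling that forms the lower jaw and much of the tongue. The set held every gene on the array whose symbol names a semaphorin, plexin, neuropilin, netrin, Unc5 receptor, Slit, Robo, ephrin or Eph receptor, plus the netrin receptor genes Dcc and Neo1. These were 69 of the 18194 genes that the array annotation named: 20 semaphorins, 9 plexins, 2 neuropilins, 4 netrins, 6 netrin receptors, 3 Slits, 4 Robos, 8 ephrins and 13 Eph receptors. Each gene had 1 value per array, the log2 signal of its probe set (the group of short probes that reads 1 transcript) with the highest mean.

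RNA came from ICR mouse embryos, an outbred strain, with 40 embryos pooled for a sample. Stages are given in embryonic days (E). The medial sample was the tip of the arch, where the lateral lingual swellings meet, and the lateral sample was the remainder of the arch, as described for E10.5. Medial tissue was represented by 1 array at E9.7, 3 at E10.5, 2 at E11.5 and 1 at E14.5, and lateral tissue by 1 at E9.7 and 3 at E10.5. The last medial sample is also labelled as tongue, its anterior part, so there stage and dissection cannot be told apart. Nothing states that replicate pools came from separate litters, so p-values reflect the scatter of these arrays alone, and that scatter may be technical. The small number of arrays limits the precision.

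These families steer growing axons and also migrating cells, among them the neural crest cells that populate the arch. Netrins are secreted cues that attract through Dcc and neogenin (Neo1) and repel through Unc5 receptors. Class 3 semaphorins are secreted and mostly bind a neuropilin paired with a plexin, whereas semaphorins of the other classes bind plexins directly and are mostly anchored in the membrane. Slits are secreted repellents read by Robo receptors, and ephrins are held on the cell surface and signal with Eph receptors in both directions across a cell contact.

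Most of these genes gave a signal on the arrays. A level of 4.86, the 50th percentile of all normalized log2 values, was reached on all 11 arrays by 50 of the 69 genes, on some arrays by 14 and on no array by 5 (Epha5, Epha6, Robo2, Robo3 and Unc5d). Of the 69 genes, 61 passed the filter for testing (that level on 2 or more of the 8 replicated arrays), and Epha8, Sema3e and Sema6b were the others left out. The medians of the deposited log2 signals were 5.20 to 5.73 on 9 arrays. They were 2.37 and 2.47 on the arrays of replicate 1 from medial E10.5 and medial E11.5. All arrays were brought to 1 distribution before the comparisons. The 2 low arrays also had the highest normalized signal of an 18S rRNA control, 11.8 and 11.4 against 7.51 to 9.32. The arrays were divided by their signals of spiked-in controls into 4 groups, a number that was set and not found from the data. Differences within such an array group are given below. Group 1 holds the pair from E9.7, replicate 2 of medial E10.5 and of medial E11.5, and replicate 1 of lateral E10.5. Group 2 holds the low arrays, and group 3 holds replicate 3 of medial E10.5 with replicates 2 and 3 of lateral E10.5. Group 4 is the E14.5 array alone. Of 10 marker genes of mandibular arch mesenchyme, 9 were measured and none of them was under the level on every array. Of 5 genes of the second arch and trunk, Hoxa2 was under the level on every array, and Hoxb2, Hoxa3, Hoxb3 and Hoxb4 reached it on 5, 3, 7 and 4 arrays, with a maximum of 5.26 to 5.56.

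Promoter windows are shown for Nrp2, Unc5b and Unc5c, the receptor genes that passed as higher in medial tissue at E10.5 and as lower in medial tissue at E11.5, and they were picked after those values were seen. The windows are the 250 bases before the RefSeq start on GRCm38.p6, written along the gene's strand. Capitals mark GGGCGG, the GC box, or its reverse complement CCGCCC.
Nrp2, chr1:62703067-62703316, plus strand: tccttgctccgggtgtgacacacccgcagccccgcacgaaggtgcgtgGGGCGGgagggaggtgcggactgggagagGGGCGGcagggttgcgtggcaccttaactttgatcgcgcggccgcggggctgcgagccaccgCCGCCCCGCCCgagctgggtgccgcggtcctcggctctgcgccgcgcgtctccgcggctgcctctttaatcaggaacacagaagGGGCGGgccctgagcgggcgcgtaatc
Unc5b, chr10:60831582-60831831, minus strand: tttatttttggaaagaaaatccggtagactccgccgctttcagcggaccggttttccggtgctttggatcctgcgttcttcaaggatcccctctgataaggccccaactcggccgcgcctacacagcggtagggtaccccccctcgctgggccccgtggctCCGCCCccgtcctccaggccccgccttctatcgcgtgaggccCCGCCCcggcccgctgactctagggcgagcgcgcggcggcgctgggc
Unc5c, chr3:141465314-141465563, plus strand: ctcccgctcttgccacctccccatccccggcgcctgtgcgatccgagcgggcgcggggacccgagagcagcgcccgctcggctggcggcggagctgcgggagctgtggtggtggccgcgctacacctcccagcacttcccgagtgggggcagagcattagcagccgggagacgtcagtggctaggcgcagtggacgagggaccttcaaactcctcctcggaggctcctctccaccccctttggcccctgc
The Nrp2 window held 5 matches, of which 2 share a base, the Unc5b window held 2, and the Unc5c window held 0. GC content was 72.4% for Nrp2, 66.8% for Unc5b and 71.2% for Unc5c, against a median of 52.4% over all 32851 windows of this length. On either strand, GGGCGG was in 32.7% of all windows and in those of 8 of 13 genes called in either tested comparison that had a window (Neo1, Nrp1, Nrp2, Plxnd1, Sema3g, Sema5a, Sema6d and Unc5b). TGATTG, a letter pattern of TALE homeodomain proteins, was in 12.7% of windows and in those of Ephb1 and Nrp1. The homeodomain core TAATTA was in 4.84% and the E-box CAGATG in 14.4% of all windows, and in 0 of the windows of these 13 genes.

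The first question was how medial tissue differs from lateral tissue at E10.5. In the netrin system 1 ligand and 2 receptors passed, in opposite directions: Ntn1 was lower in medial tissue, where its signal was under the level, and the repulsive receptors Unc5c and Unc5b were 2.98-fold and 2.13-fold higher. The neuropilin gene Nrp2 was 2.54-fold and the semaphorin gene Sema3a 2.12-fold higher in medial tissue. Sema6d and Sema3d were also higher, and Sema5a and Sema3g were lower. Sema3g entered the test through its lateral arrays only, so it could be called in no other direction. By limma with Benjamini-Hochberg adjustment over 11968 genes, 9 of the 61 tested genes passed an adjusted p of 0.05, or 14.8%, 6 higher and 3 lower, where 4.63% of all tested genes passed, 2.82% as higher and 1.8% as lower. The median difference of the 61 genes was -0.03 and that of all tested genes was -0.01. The arrays of medial tissue were all above or all below those of lateral tissue for 21 of the 61 genes, 13 higher and 8 lower, and for 25% of all tested genes.

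Among the ligands of the netrin system, Ntn1, which encodes netrin-1, gave log2 signals of 3.35, 4.85 and 4.5 on the medial arrays and 6.33, 6.25 and 6.28 on the lateral arrays. Every medial array lay below every lateral one, and the medial arrays were under the level of 4.86, so the size of the difference rests on dim signal. The difference was -2.05 ± 0.34 (log2 ± SE, 3 arrays in each tissue, limma adjusted p = 0.00926), with -1.48 within array group 1 and -1.76 within array group 3. The other Ntn1 probe set reached the level on no array and differed by -0.05, and the mean of both probe sets differed by -1.05 (limma adjusted p = 0.0104). Ntn3, Ntn4 and Ntn5, the other secreted netrins, differed by -0.45, -0.10 and -0.11 and did not pass.

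Unc5c, a receptor that turns a response to netrin-1 into repulsion, read 8.78, 9.08 and 9.08 on the medial arrays and 7.49, 7.37 and 7.36 on the lateral arrays. Its difference was 1.57 ± 0.13 (limma adjusted p = 0.000233), with 1.59 and 1.71 within array groups 1 and 3, and its other probe set gave 1.76. The medial arrays all stood above the lateral ones. Unc5b, known also as an endothelial netrin receptor, read 8.18, 8.33 and 8.92 on the medial arrays and 7.08, 7.42 and 7.65 on the lateral arrays. Its groups did not overlap either, and the difference was 1.09 ± 0.21 (limma adjusted p = 0.0193), 1.25 and 1.38 within array groups 1 and 3, and 1.05 on the other probe set. The call of Unc5b was lost without lateral replicate 1 (limma adjusted p = 0.071) or lateral replicate 2 (0.0751). Of the attractive receptors, Dcc differed by 0.08 (95% interval -0.29 to 0.46) and Neo1 by -0.01 (-0.25 to 0.24). Unc5a differed by -0.24 (-0.68 to 0.19), and these 3 genes did not pass.

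**Figure D1:**
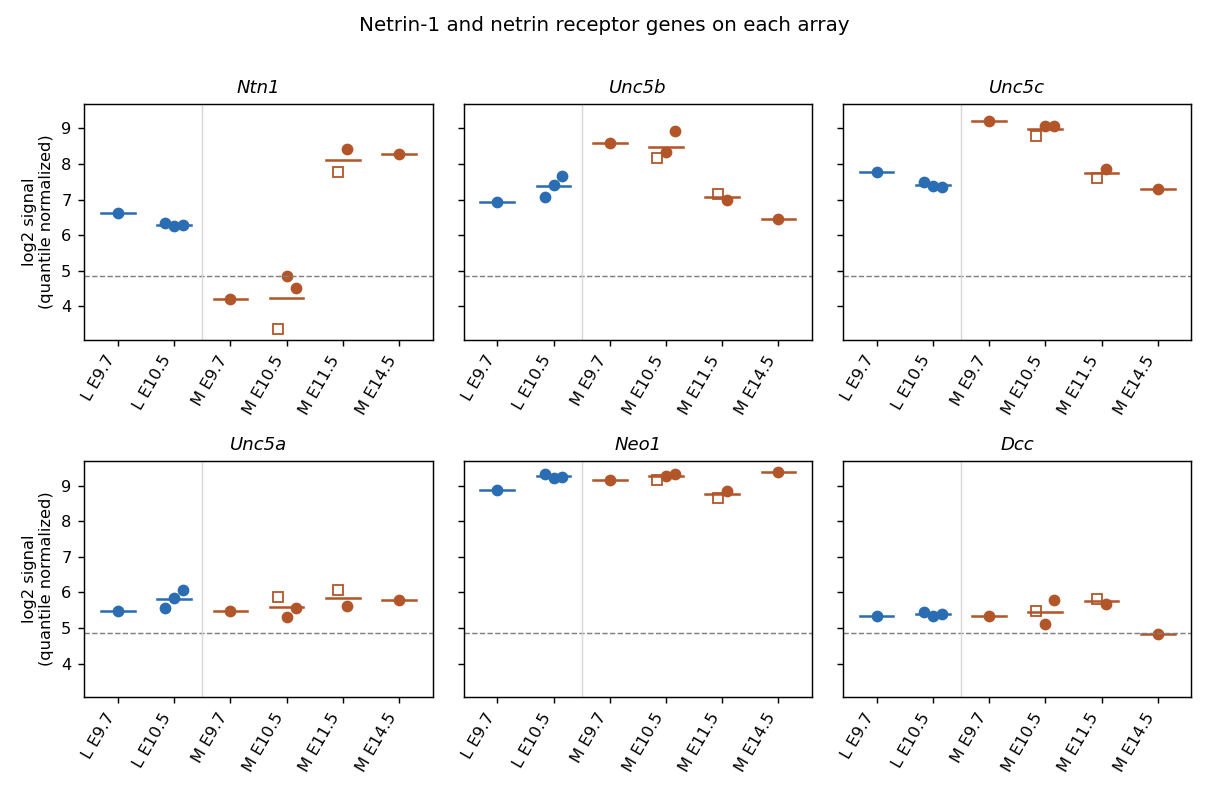
Normalized log2 signal of netrin-1 (Ntn1) and 5 netrin receptor genes on every array, with lateral (L) arrays in blue and medial (M) arrays in orange, group means as bars, open squares for the 2 arrays of low deposited signal and a dashed line at the filter level of 4.86. Ntn1 was under the level on the medial arrays at E9.7 and E10.5 and at 7.77 and 8.43 at E11.5, while Unc5b and Unc5c were highest on the medial arrays of E9.7 and E10.5.

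Of 18 tested semaphorin genes, 5 passed at E10.5, 3 higher and 2 lower. Sema3a, the secreted repellent first purified as collapsin, read 9.14, 9.14 and 9.08 on the medial arrays and 8.13, 8 and 7.98 on the lateral arrays. The 2 groups were apart on every array, and the difference was 1.08 ± 0.11 (limma adjusted p = 0.00058), with 1.02 and 1.09 within array groups 1 and 3 and 0.84 and 0.85 on its other probe sets. Sema6d, a transmembrane semaphorin that binds plexin-A1, read 7.88, 7.99 and 8.14 on the medial arrays against 7.21, 7.17 and 7.19. Its difference was 0.81 ± 0.14 (limma adjusted p = 0.0102), and 0.38 (0.0889) on the mean of its probe sets, most of which were dim. Without lateral replicate 2 or 3 its adjusted p was 0.0561 or 0.0529. Sema3d, another secreted class 3 gene, read 7.18, 7.16 and 6.95 on the medial arrays against 6.71, 6.31 and 6. Its difference of 0.76 ± 0.17 (limma adjusted p = 0.0432) rested on all arrays: the call was lost without any one of the arrays of the replicated groups except lateral replicate 1, with an adjusted p of 0.0594 to 0.165. On the values as deposited, Sema6d and Sema3d differed by -0.21 and -0.33, where the median of all genes shifted by -1.03.

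Sema5a, a transmembrane semaphorin that binds plexin-B3, read 8.08, 7.97 and 7.86 on the medial arrays and 8.46, 8.80 and 8.79 on the lateral arrays, without overlap. The difference was -0.71 ± 0.13 (limma adjusted p = 0.0128), and -0.85 and -0.90 on the other probe sets that reached the level. Its call was lost without medial replicate 2 (0.0509), lateral replicate 2 (0.0766) or lateral replicate 3 (0.0762). Sema3g, a class 3 gene known from blood vessels, stayed near the level, with 4.31, 4.48 and 4.54 on the medial arrays and 4.96, 4.92 and 5.05 on the lateral arrays. Its difference was -0.54 ± 0.11 (limma adjusted p = 0.0288), and the call was lost without medial replicate 1 or 2 or any one of the lateral arrays, with an adjusted p of 0.0688 to 0.155. Of the replicated arrays only the lateral ones reached the level, so Sema3g entered the test through the group where it is higher. Without the filter on dim genes its limma adjusted p was 0.0518. The other 13 tested semaphorins, Sema3b, Sema3c, Sema3f, Sema4a, Sema4b, Sema4c, Sema4d, Sema4f, Sema4g, Sema5b, Sema6a, Sema6c and Sema7a, differed by -0.58 (Sema3f) to 0.57 (Sema4b) and did not pass.

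The receptors of the semaphorins split, with Nrp2 higher in medial tissue and 0 of 9 plexins called by limma (2 at an unadjusted p under 0.05). With the replicate block, and with array group as a fixed effect, 2 plexins passed, Plxna2 and Plxnc1. Nrp2, the neuropilin through which Sema3f acts, read 8.97, 9.14 and 9.06 on the medial arrays and 7.72, 7.76 and 7.65 on the lateral arrays. No array crossed over, and the difference was 1.34 ± 0.13 (limma adjusted p = 0.000653), with 1.41 and 1.36 within array groups 1 and 3 and 0.77 to 1.14 on its 3 other probe sets. Nrp1, the neuropilin that Sema3a binds, read 8.18, 8.30 and 8.48 on the medial arrays and 8.56, 8.33 and 8.47 on the lateral arrays. These arrays overlapped, and the difference was -0.13 (95% interval -0.41 to 0.15). The other Nrp1 probe sets disagreed in direction, at 0.15, 0.47 and -0.45. Among the 9 plexins, the signalling subunits of semaphorin receptors, Plxna2 was at 0.49 (limma adjusted p = 0.0769) and Plxnc1, the receptor of Sema7a, at 0.60 (0.189). The other plexins (Plxna1, Plxna3, Plxna4, Plxnb1, Plxnb2, Plxnb3 and Plxnd1) lay between -0.26 and 0.24.

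**Figure D2:**
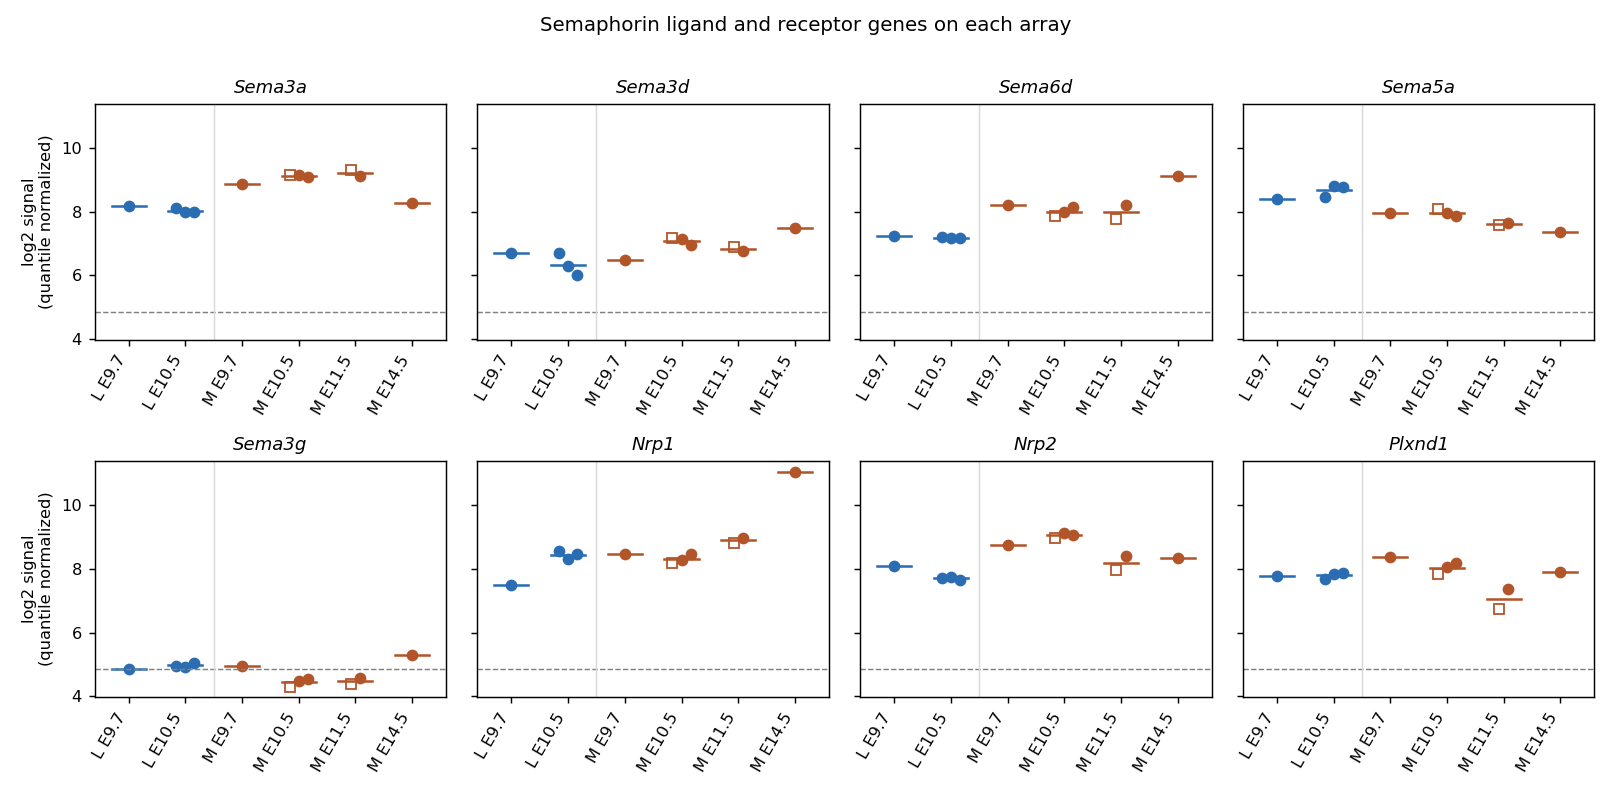
Normalized log2 signal of 5 semaphorin genes, both neuropilin genes and the plexin gene Plxnd1 on every array, drawn with lateral (L) arrays in blue, medial (M) arrays in orange, bars for group means, open squares for the arrays of low deposited signal and the filter level of 4.86 dashed. At E10.5 the medial arrays of Sema3a, Sema3d, Sema6d and Nrp2 lay above the lateral arrays and those of Sema5a and Sema3g below, and Nrp1 stood at 11.06 on the E14.5 array.

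No ephrin, Eph receptor, Slit or Robo passed at E10.5 in the main fit: 0 of 8 ephrins, 0 of 10 Eph receptors, 0 of 3 Slits and 0 of 2 Robos by limma, with 3 ephrins, 2 Eph receptors, 0 Slits and 0 Robos at an unadjusted p under 0.05. Efnb2 passed with array group as a fixed effect, and Efna1 without the low arrays or without medial replicate 1. With array weights, where 2833 of all genes passed, Efna1, Efnb1, Efnb2, Efnb3, Epha1, Epha3, Ephb6 and Slit2 did. Efnb2, an ephrin that marks arterial endothelium and takes part in neural crest migration, read 9.16, 9.65 and 9.73 on the medial arrays and 10.24, 9.96 and 10.12 on the lateral arrays. Its arrays did not overlap, and the difference was -0.59 (95% interval -1.01 to -0.18, limma adjusted p = 0.134). The highest ephrin difference was 0.49 for Efna1 (limma adjusted p = 0.0906), and Efna2, Efna3, Efna4, Efna5, Efnb1 and Efnb3 lay between -0.44 and 0.26. The Eph receptors Epha1, Epha2, Epha3, Epha4, Epha7, Epha10, Ephb1, Ephb3, Ephb4 and Ephb6 lay between -0.42 (Epha3) and 0.43 (Epha10). Slit1, Slit2 and Slit3 differed by -0.11, -0.30 and 0.20, and their receptors Robo1 and Robo4, the latter an endothelial Robo, by -0.11 and 0.17. The 95% intervals reached from -0.68 for Slit2 to 0.66 for Slit3, so smaller differences were not resolved for the Slits. Among the dim genes left out of the test, Sema3e read 3.13, 3.50 and 2.97 on the medial arrays and 4.18, 4.53 and 4.46 on the lateral arrays, all under the level.

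Markers of other cell types also differed between these tissues. The summed log2 level of 11 measured epithelial markers was 11.59 to 11.72 on the medial and 10.75 to 10.87 on the lateral arrays, and 7 of 11 passed, all higher. That of 13 endothelial markers was 11.05 to 11.19 against 10.68 to 10.77, with 3 of 13 higher. That of 13 measured neuronal markers was 10.25 to 10.46 against 9.33 to 9.37, but 2 of 7 tested were higher, Dcx by 1.55 and Gap43 by 1.58. The other tested neuronal markers lay between -0.52 (Nefl) and 0.02 (Syt1), and the median of the 7 was -0.02. The neuronal markers Pou4f1 and Snap25 were under the level on every array. Other lists ran the opposite way. Of 12 skeletal muscle markers, 3 passed as lower and 1 as higher, with a summed level of 8.62 to 8.87 on the medial and 9.01 to 9.27 on the lateral arrays. Of 3 tested cartilage markers 2 passed as lower (11.51 to 11.78 against 11.98 to 12.07). Schwann cell precursor markers were mixed. Of 3 tested, 1 passed, Fabp7 as lower by -2.06 ± 0.14 (limma adjusted p = 9.09e-05), while Sox10 was at -0.27 and Erbb3 at 0.47. Their summed levels overlapped, with 7.88 to 8.15 on the medial and 8.02 to 8.15 on the lateral arrays. The part of these cell types in the differences above was not tested, and in pooled tissue fewer cells of a type and less RNA per cell cannot be told apart.

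The second replicated step was medial tissue from E10.5 to E11.5, which uses the same 3 medial E10.5 arrays as the comparison above, so the values below are not independent of it. Ntn1 rose from under the level to 7.77 and 8.43, and Unc5b, Unc5c and Nrp2 fell by 2.67-fold, 2.36-fold and 1.82-fold. The Eph receptor genes moved apart, Ephb1 up by 2.48-fold and Epha3 down by 2.58-fold. Of the 61 tested genes, 9 passed (14.8%), 3 higher and 6 lower at E11.5, where 6.92% of all tested genes passed, 4.32% as higher and 2.6% as lower. The median difference was -0.02, and 0 over all tested genes. For 14 of the 61 genes, 4 higher and 10 lower, the E11.5 arrays did not overlap those of E10.5, as for 28.4% of all tested genes.

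Ntn1 read 7.77 and 8.43 on the E11.5 arrays, against 3.35, 4.85 and 4.5 at E10.5, so it passed from under the level to well over it, and the size of the change rests on dim E10.5 signal. The difference was 3.87 ± 0.38 (n = 2 and 3, limma adjusted p = 0.000344), 3.59 within array group 1, 4.43 within the low arrays of group 2, and 2.2 (limma adjusted p = 0.000198) as the mean of its probe sets. Unc5b read 7.15 and 6.98 at E11.5, below its 3 E10.5 arrays. It fell by 1.42 ± 0.24 (limma adjusted p = 0.00705), or by 1.92 on its other probe set, and the adjusted p was 0.0627 without E11.5 replicate 2. Unc5c read 7.62 and 7.86, also below every E10.5 array, and fell by 1.24 ± 0.14 (limma adjusted p = 0.000689), or by 1.64 on its other probe set. Neo1 read 8.67 and 8.85 at E11.5 against 9.17, 9.28 and 9.34. Its difference of -0.51 ± 0.12 (limma adjusted p = 0.0373) was lost without any one of the arrays of the replicated groups except medial E10.5 replicate 1, with an adjusted p of 0.0587 to 0.168. Its other probe sets differed by -0.81 to 0.51, with 2 of 4 in the same direction, and their mean with it by -0.22 (0.475). Dcc (0.28), Unc5a (0.27), Ntn3 (-0.02), Ntn4 (-0.66) and Ntn5 (-0.23) did not pass.

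Both neuropilin genes passed and in opposite directions, while by limma 0 of 18 tested semaphorins did (1 at an unadjusted p under 0.05). With array group as a fixed effect, 10 further members passed: Efnb1, Epha1, Epha4, Epha7, Ephb3, Ntn4, Plxna2, Plxnb2, Sema4f and Sema6c. Nrp2 read 7.97 and 8.42 at E11.5, under its E10.5 arrays of 8.97, 9.14 and 9.06, and fell by 0.86 ± 0.15 (limma adjusted p = 0.00845), with other probe sets between -0.95 and -0.38. Nrp1 read 8.83 and 8.99, above 8.18, 8.30 and 8.48. It rose by 0.59 ± 0.14 (limma adjusted p = 0.0357) and by 0.75 to 0.78 on its other probe sets, but differed by -0.10 on the values as deposited, where the median of all genes shifted by -0.66. The call of Nrp1 was lost without any one of the arrays of the replicated groups except medial E10.5 replicate 3, with an adjusted p of 0.0543 to 0.151. Plxnd1, an endothelial plexin that binds Sema3e, was called, as 1 plexin of 9: it read 6.75 and 7.38 against 7.84, 8.06 and 8.18 and fell by 0.96 ± 0.19 (limma adjusted p = 0.0177). The adjusted p of Plxnd1 was 0.0557 without medial E10.5 replicate 2, 0.0547 without replicate 3, 0.0905 without E11.5 replicate 1 and 0.0699 with the groups compared alone. The ligands called higher in medial than lateral tissue at E10.5 did not pass between E10.5 and E11.5: Sema3a by 0.09 (95% interval -0.17 to 0.36), Sema6d by -0.01 (-0.37 to 0.34) and Sema3d by -0.27.

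Ephb1, a receptor of B-type ephrins, read 5.98 and 6.36 at E11.5, above its E10.5 arrays of 4.47, 5.15 and 4.97, which lie about the level. It rose by 1.31 ± 0.22 (limma adjusted p = 0.00658), 1.21 and 1.52 within array groups 1 and 2, and the adjusted p was 0.0637 without E11.5 replicate 2. Epha3, a receptor of A-type ephrins, read 7.69 and 7.17 at E11.5 and 8.59, 8.90 and 8.88 at E10.5. It fell by 1.37 ± 0.17 (limma adjusted p = 0.00129), its 3 other probe sets gave -1.44 to -1.15, and the differences within array groups 1 and 2 were -1.74 and -0.91. By limma 0 of 8 ephrins passed (1 at an unadjusted p under 0.05), and Epha7, at -0.77 (95% interval -1.60 to 0.07), had the largest difference among the Eph receptors that did not. Of the Slits and Robos, 0 passed, and 0 were at an unadjusted p under 0.05: Slit2 differed by 0.10 (-0.32 to 0.53) and Robo1 by 0.27 (-0.14 to 0.69).

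**Figure D3:**
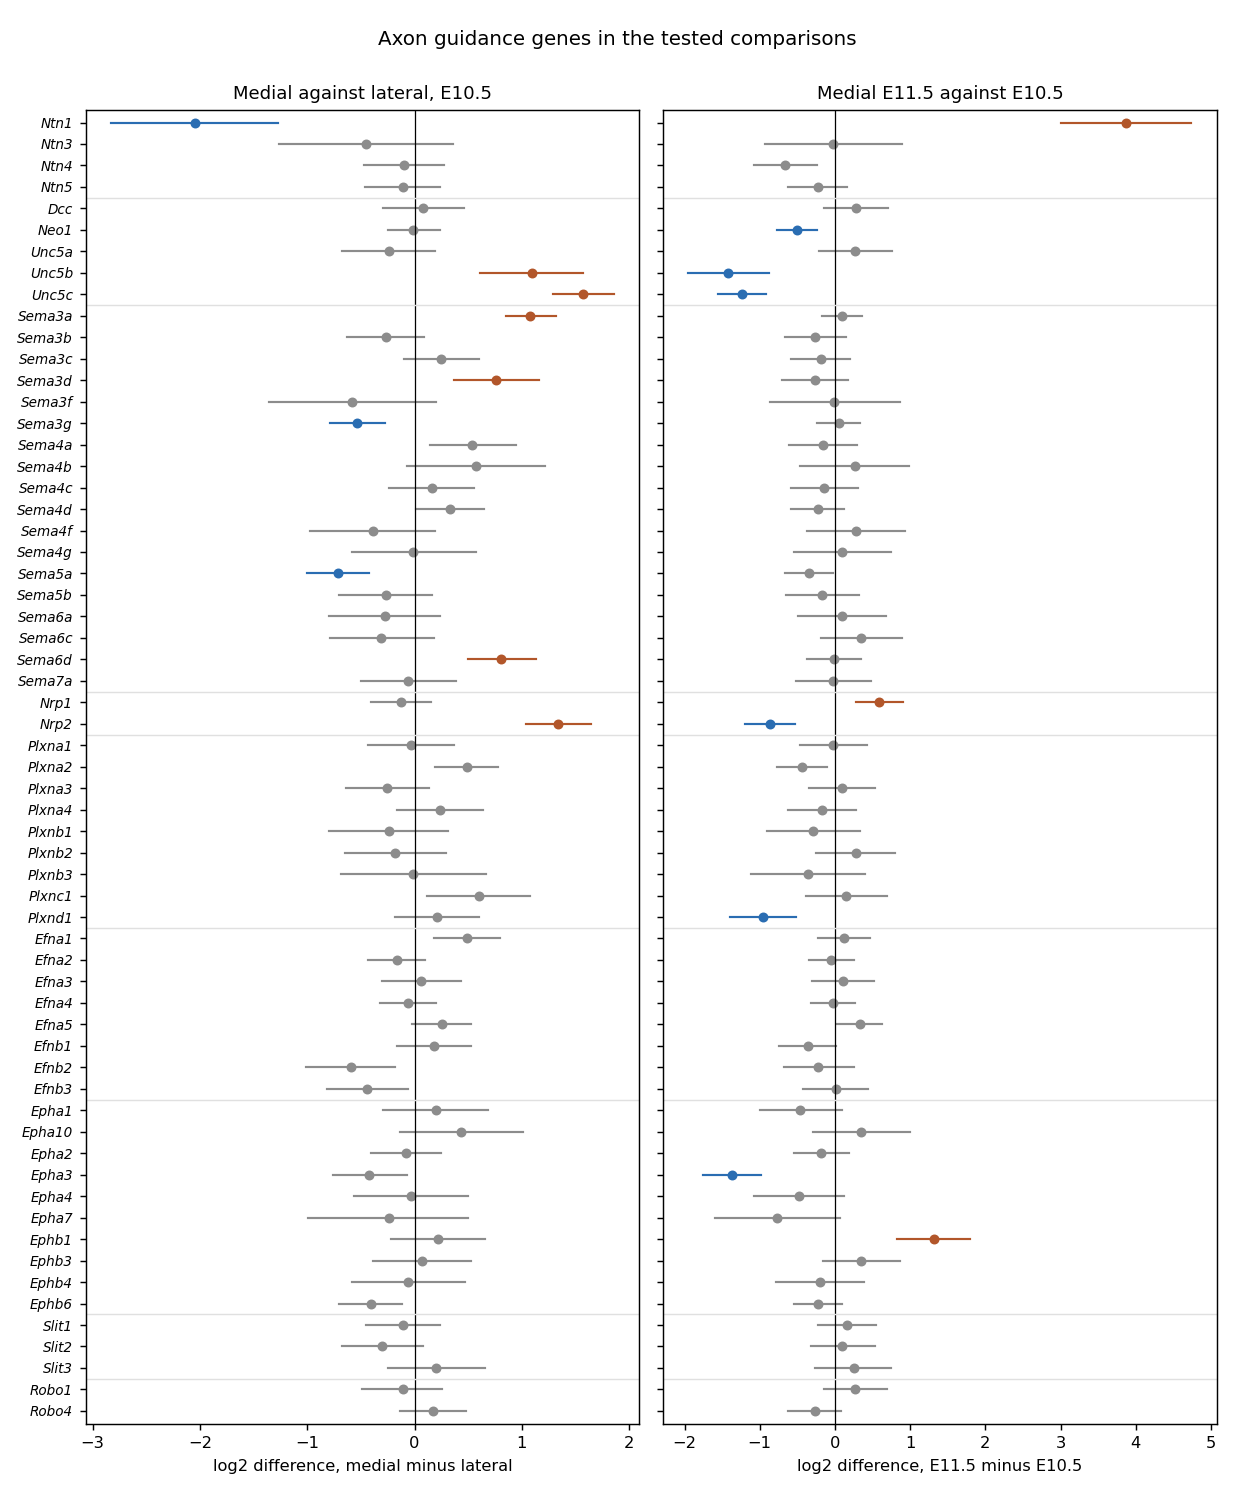
Log2 difference of each of the 61 tested genes for medial minus lateral tissue at E10.5 (left) and medial E11.5 minus medial E10.5 (right), with lines for 95% intervals from limma, orange for higher and blue for lower at an adjusted p under 0.05, grey for genes not called and pale rules between families. Ntn1 is at -2.05 on the left and 3.87 on the right, and the 2 panels share the medial E10.5 arrays and differ in the span of their axes.

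Cell type markers shifted over this step as well. The summed log2 level of 12 skeletal muscle markers was 8.62 to 8.87 at E10.5 and 12.71 to 13.04 at E11.5, and 12 of 12 passed, all higher. Of 9 arch mesenchyme markers, 7 passed as lower and 1 as higher (summed level 13.46 to 13.57, then 12.51 to 12.76). Epithelial markers passed as lower for 8 of 11 (then 10.66 to 10.72) and endothelial markers for 3 of 13 (then 10.56 to 10.74). Macrophage markers passed as higher for 3 of 5 (summed level 7.79 to 7.99, then 8.62) and Schwann cell precursor markers for 1 of 3 (7.88 to 8.15, then 9.16 to 9.54). Neuronal markers were mixed, with 3 of 7 higher and 1 lower (10.25 to 10.46, then 9.94 to 10.26). So were pericyte markers, with 2 of 5 higher and 1 lower (10.17 to 10.9, then 9.9 to 10.56). The summed levels of these 2 lists overlapped between the stages. The part of these cell types in the changes of Ntn1, Unc5b, Plxnd1 and the other genes was not tested.

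The E9.7 arrays, which neither comparison above uses, allowed the medial and lateral tissue to be compared at an earlier stage, with 1 array each and no test. Unc5b read 8.60 in medial and 6.92 in lateral tissue, Unc5c 9.20 and 7.78, Ntn1 4.20 and 6.63, and Efnb2 9.13 and 10.15. Counting members whose mean reached the level in at least one of the groups compared, as in each step without a test, these were the 4 of 57 genes that lay at least 2-fold apart, where 1.76% of all genes did, 1.09% higher and 0.667% lower: Unc5b (3.20-fold) and Unc5c (2.69-fold) higher in medial tissue, and Ntn1 (5.40-fold, with its medial signal under the level) and Efnb2 (2.03-fold) lower. Ntn1 entered the count of 4 through its lateral array only, so it could be counted in no other direction. With centring on array medians, or with the values as deposited, 5 genes were counted as higher and 2 as lower in place of 2 and 2. The 3 other probe sets of Efnb2 differed by -0.96, -0.93 and -0.70. Of the 9 genes called at E10.5, 7 had the same sign at E9.7 and 3 were also at least 2-fold apart, against 93.3% and 26.7% of all 554 genes called at E10.5. Over all 57 genes the sign was shared by 64.9%, near the 62.4% of all genes. Nrp1 read 8.46 in medial and 7.51 in lateral tissue at E9.7, a difference of 0.95 that was -0.13 at E10.5. Its other probe sets gave 0.90, 0.85 and 0.22 at E9.7, and 0.15, 0.47 and -0.45 at E10.5. Nrp2 (0.66), Sema3a (0.68) and Sema6d (0.95) differed in the same direction at E9.7 as at E10.5.

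**Figure D4:**
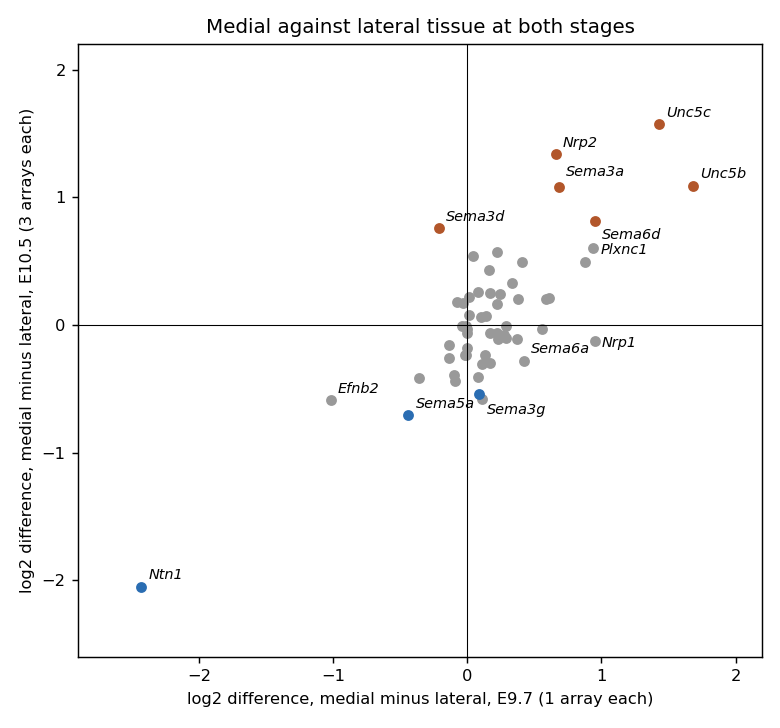
Medial minus lateral log2 difference at E9.7 (x axis, 1 array each) against that at E10.5 (y axis, 3 arrays each) for the genes that passed the filters at both stages, with orange and blue for genes called higher and lower at E10.5. Unc5b, Unc5c and Ntn1 lie far from 0 on both axes, and Sema3d (-0.21 and 0.76) and Sema3g (0.09 and -0.54) changed sign.

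Between E9.7 and E10.5 few of the genes were counted within each tissue, again with 1 array on the E9.7 side. In medial tissue 0 of 56 genes lay 2-fold beyond every array, where 1.01% of all genes did. In lateral tissue 1 of 58 did, where 1.36% of all genes did. The median difference of the lateral arrays was 0.23, beside 0.03 for all genes, and at a 1.5-fold threshold 8 of the 58 genes were counted, all higher at E10.5, beside 607 of 11484 genes. The 1 gene past 2-fold was Epha4, an Eph receptor that binds ephrins of both classes, with 6.85 on the E9.7 array and 8.62, 8.36 and 8.55 at E10.5. It was higher at E10.5 by 1.66 (3.17-fold), with 0.87 to 1.42 on its other probe sets. In medial tissue Epha4 read 7.40 at E9.7 and 7.99, 8.83 and 8.62 at E10.5, a difference of 1.07, and was counted there without medial E10.5 replicate 1.

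The last step set the E14.5 array, labelled tongue, against the medial E11.5 arrays. It is the lone array of group 4, so array group and stage cannot be told apart here. Of 62 genes, 10 lay at least 2-fold beyond both E11.5 arrays, 8 higher and 2 lower, or 16.1%, near the 14.8% of all genes (11.1% higher, 3.67% lower). Sema3c, a secreted semaphorin of heart outflow development, read 10.45 at E14.5 against 6.87 and 7.20 at E11.5 (3.41, 10.7-fold), and its other probe set differed by 1.32. Epha3 read 10.82 against 7.69 and 7.17 (a difference of 3.40). Both were at their highest of the series on this array. Epha7 read 9.58 against 6.84 and 7.77, Sema3e 5.53 against 3.33 and 3.17, and Nrp1 11.06 against 8.83 and 8.99. Ntn4, a netrin of basement membranes, read 6 against 4.18 and 4.02. Slit2 (1.88) and Ntn5 (1.24) were also counted as higher. Sema3e, Ntn4 and Ntn5 entered this count through the E14.5 array only, so they could be counted in no other direction, and with the filter at the 75th percentile 5 genes were higher and 2 lower. The ephrin genes Efna4, at 6.99 against 8.56 and 8.45, and Efna5, at 7.81 against 8.88 and 9.06, were the lower ones, by 2.86-fold and 2.23-fold. Ntn1 stayed at 8.27, close to its E11.5 arrays, and on the probe sets used Unc5b (6.44) and Unc5c (7.31) lay below theirs by less than 2-fold. The other probe sets of Unc5b and Unc5c, which reached the level on every array, differed by more, at -1.02 and -1.62. On the values as deposited the counts were 12 higher and 0 lower, and after centring on array medians 10 and 1.

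Probe sets of 1 gene disagreed in this step for several receptors. The 4 probe sets of Epha3 differed by 3.40, 3.25, 0.21 and -0.40, and those of Epha7 by 2.28, 0.52, -0.56 and 2.78, the last of them dim. Of the Nrp1 probe sets 3 were higher (2.15, 1.74 and 1.4) and 1 was at -0.49. Epha4 was at 0.80 on the probe set used and at -2.53, -2.78 and -2.76 on 3 others that reached the level on every array, and Sema3a was at -0.95, -2.16 and -2.45. A value for these genes at E14.5 therefore holds for the probe set named by the highest mean and not for the gene as a whole. Markers differed at E14.5 too, with muscle at a summed level of 15.18 against 12.71 to 13.04 and epithelium at 12.73 against 10.66 to 10.72, and their part was not tested.

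**Figure D5:**
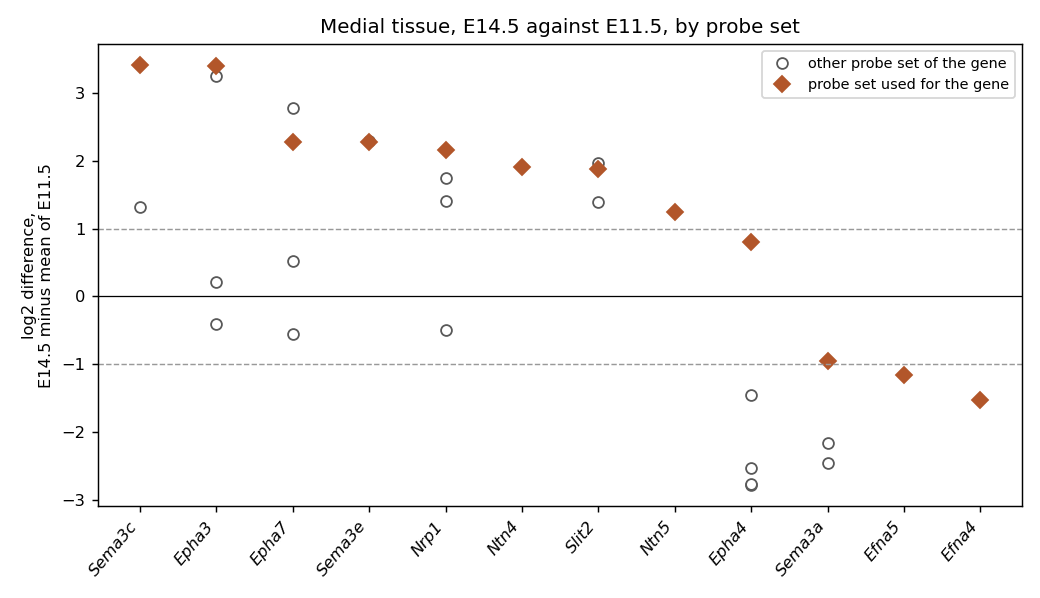
Log2 difference of the E14.5 array from the mean of the 2 medial E11.5 arrays for probe sets of 12 genes, with filled diamonds for the probe set used for the gene and open circles for the others, and dashed lines at 2-fold. Probe sets under the level on every array are not drawn. These are the other ones of Efna5 (0.49) and Ntn4 (-0.39), which ran opposite to the probe set used, and those of Sema3e at 1.36 and 0.60. For Epha4 the probe set used is at 0.80 and its 4 others lie between -2.78 and -1.46, whereas the probe sets of Slit2 lie between 1.39 and 1.96.

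Genes that act with these ligands and receptors were read from related lists. Of 22 tested alternative ligands and co-receptors, 5 (22.7%) passed as higher in medial tissue at E10.5, beside the 4.63% of all tested genes called: Cntn1, a contactin of axons, by 2.16 ± 0.17 (limma adjusted p = 0.000199), the adhesion gene L1cam by 1.11 ± 0.12 (0.00118), the lymphatic growth factor gene Vegfc by 1.04 ± 0.15 (0.00339), the endothelin receptor gene Ednrb by 1.12 ± 0.20 (0.0122), and Plxdc2 by 0.53 ± 0.13 (0.0494). From E10.5 to E11.5, 6 of the 22 passed as higher and 2 as lower (36.4% in all, beside 6.92% of all tested genes), among them Ednrb at 2.59, Met at 2.05, L1cam at -1.17 and Cntn1 at 1.11. Among the intracellular effectors at E10.5, 1 of 18 semaphorin and plexin effectors passed (Crmp1, -0.70 ± 0.14, limma adjusted p = 0.0252), and 0 of 11 Slit and Robo effectors, 0 of 17 Eph and ephrin effectors and 0 of 8 netrin effectors, with 0 in each of the last 3 lists at an unadjusted p under 0.05. From E10.5 to E11.5, Fyn (0.73) and Crmp1 (-0.79), Srgap3 (0.96), Vav2 (-0.75), and the netrin effectors Trio (0.87) and Ablim1 (0.57) passed in those lists, as 2 of 18, 1 of 11, 1 of 17 and 2 of 8 genes. The median difference of each of these 5 lists at E10.5 lay between -0.10 and 0.09, beside -0.01 for all tested genes.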

How the data were processed

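RNA of 11 samples in 6 groups was labelled as biotinylated cRNA from 3 ug of total RNA and hybridised to an Affymetrix array of 45101 probe sets. The deposited values are log2 signals that the authors made with Affymetrix Expression Console 1.1, per the submitters' processing notes; the algorithm is not given in the sources used here, and the base was read from their range of 0.0887 to 14.5. Since 2 arrays were on a lower scale, values were quantile normalized across the 11 arrays with limma 3.58.1 in R 4.3.3, which sets all arrays to 1 distribution and would hide a change shared by most genes. Of the probe sets, 34958 had 1 gene symbol, 932 several and 9211 none; symbols came from the platform annotation, updated through RefSeq for 34754 probe sets. Each gene took its probe set with the highest mean.

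Genes reaching the 50th percentile (4.86) on at least 2 of the 8 replicated arrays were tested with limma (6 group means, 5 residual degrees of freedom) and called at a Benjamini-Hochberg adjusted p under 0.05 over 11968 genes. Comparisons with a lone array have no test; they count genes for which it stood 2-fold or more outside the whole range of the opposing arrays. The procedure was tested on simulated data. Array groups were read by clustering the normalized signals of 45 spiked-in control probe sets and cutting the tree into a set number of 4 groups. The members and the lists were chosen with earlier results of these data known. Genes named with values are those called or counted in a comparison, up to 6 per direction for counted ones, with their partner families, and up to 4 genes per related list and comparison. Promoters are RefSeq sequences on GRCm38.p6 and were searched on both strands. Alternatives covered scaling, filter, probe set summary, variance model, array weights, a block of replicate numbers, array groups and leaving out each array.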

Additional observations from a re-analysis of the deposited data

Results flagged for a closer look

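Among the 61 tested genes, 13 had all medial arrays of E10.5 above the lateral ones and 8 had them below. For 4 of these genes the single pair of arrays at E9.7 differed the other way, and the difference between the stages was not tested. How many of all genes showed this pattern was not counted, so whether 4 is few or many cannot be told. The sign was shared between the stages by 62.4% of all genes and by 93.3% of the 554 genes called at E10.5. Neither share is taken over genes picked for arrays that do not overlap. Sema3d was at -0.21 (medial minus lateral, log2) at E9.7 and at 0.76 at E10.5. Sema3g was at 0.09 and then at -0.54. Ephb6 was at 0.08 and then at -0.41, and Sema6a at 0.42 and then at -0.28. The other probe sets of Sema6a did not change sign, with 0.22 and 0.47 at E9.7 and then 0.08 and 0.02 at E10.5. For Sema3g and Ephb6 the sign at E9.7 rests on a small difference between 2 single arrays.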

How the results depend on the processing

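The 9 calls became 0 to 27 at E10.5 and 0 to 19 from E10.5 to E11.5 over the settings tried. With values as deposited, 0 genes passed in either comparison (2 and 1 of all genes), and Sema3d (-0.33), Sema6d (-0.21) and Nrp1 at E11.5 (-0.10) turned sign; relative to the shift of all genes (-1.03 and -0.66) they were at 0.70, 0.82 and 0.55. At E10.5, array weights gave 27 calls (2833 of all genes), array group as a fixed effect 12 (1254), centring on the array median 6 (5 higher, 1 lower; 358), and leaving out 1 array 4 to 9. From E10.5 to E11.5, the fixed effect gave 19 (2182 of all genes), centring 7 (455), the groups compared alone 6 (482), and leaving out 1 array 5 to 9. Leaving out lateral replicate 2 or 3 gave 313 or 308 of all genes at E10.5, and E11.5 replicate 1 or 2 gave 544 or 515 of all genes at E11.5. The deviations of same-numbered medial and lateral arrays had r = 0.13, -0.29 and 0.48 for replicates 1, 2 and 3. Only the replicate 3 pair shares an array group, so pairing and array group cannot be told apart for it. The replicate block gave 11 calls at E10.5 (8 higher and 3 lower, with 779 of all genes) and 8 at E11.5 (868). Between medial E10.5 and E11.5, 2 same-numbered pairs had r = 0.59 and 0.39, and each of them also shares an array group. For medial against lateral tissue at E9.7 the count of 4 became 7 as deposited, 7 centred and 12 at 1.5-fold. Between E9.7 and E10.5, the medial count of 0 became 1 at 1.5-fold and 1 without the low arrays (0 to 1 leaving out 1 array), and the lateral count of 1 became 2 as deposited and 8 at 1.5-fold (1 to 2). At E14.5 the count of 10 became 21 at 1.5-fold (14 to 19 leaving out 1 array). Dim signal limits Ntn1 in early medial tissue, Sema3g and Sema3e.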

Other observations

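Several genes that were not called at E10.5 still had medial and lateral arrays apart. Plxna2, a plexin subunit of class 3 and class 6 semaphorin receptors, read 8.31, 8.22 and 8.64 on the medial arrays and 7.81, 7.95 and 7.95 on the lateral arrays, and it passed with the filter at the 75th percentile, with its probe sets averaged, with the replicate block and with array group as a fixed effect. Efna1, an A-type ephrin, read 6.95, 7.24 and 7.30 against 6.82, 6.56 and 6.64. Ephb6, an Eph receptor without kinase activity, read 5.63, 5.58 and 5.55 against 6.01, 5.90 and 6.08. Efnb3 read 7.59, 7.53 and 7.76 against 8.12, 7.87 and 8.21, and Epha3 8.59, 8.90 and 8.88 against 9.15, 9.25 and 9.23. Robo2 read 2.74, 3.98 and 3.48 against 2.54, 2.48 and 2.64, all of them under the level of 4.86.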
